A study of Mus musculus with 9 samples.

Results

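The transcripts encoded by the mitochondrial genome were characterized in B16 cells, a mouse melanoma line. Every gene name starting with mt- in the deposited expression tables was taken, which gave 13 of 22972 gene names. RNA sequencing had been performed on 9 bulk libraries, with 3 for each group, collected on day 3. CTL cells were grown on a flexible polydimethylsiloxane film without straining or inhibitor, MS cells were cyclically strained on the same kind of film for 72 h, and MS + Blebb. cells received 100 ng/mL blebbistatin, an inhibitor of myosin II, for 72 h. The sample labels of the last group name blebbistatin without straining, whereas the study's text names straining with the inhibitor. All groups were the same cell line, so the values describe 1 tumor line in culture. Libraries were numbered as parallel experiments, and nothing says whether these were separate cultures, so p-values measure only the spread between these libraries.

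The mitochondrial genome of mammals is a small circle that is transcribed from both strands into long precursors. Most tRNA genes lie between the coding genes and are cut out, which releases the individual mRNAs. Most of these are then polyadenylated, and the mRNAs are translated by mitochondrial ribosomes. All of the encoded proteins are subunits of oxidative phosphorylation complexes, which pass electrons to oxygen and use the resulting proton gradient to make ATP. The 13 genes measured were all of the protein genes of this genome in the GENCODE M21 annotation. They comprise 7 subunits of complex I (mt-Nd1, mt-Nd2, mt-Nd3, mt-Nd4, mt-Nd4l, mt-Nd5 and mt-Nd6), cytochrome b of complex III (mt-Cytb), 3 subunits of cytochrome c oxidase or complex IV (mt-Co1, mt-Co2 and mt-Co3), and 2 subunits of ATP synthase (mt-Atp6 and mt-Atp8). The 2 rRNA and 22 tRNA genes were not analysed here.

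In the annotation (GRCm38, chromosome MT) the coding genes ran from mt-Nd1 at 2751-3707 to mt-Cytb at 14145-15288, all on the + strand except mt-Nd6 at 13552-14070 on the - strand. The genes were between 204 bases (mt-Atp8) and 1824 bases (mt-Nd5) long. Their GC content was low, from 31.9% (mt-Atp8) to 41.1% (mt-Nd4l), against a median of 49.9% over the genes tested. In 3 places on the + strand, neighboring coding genes share bases. mt-Atp8 and mt-Atp6 share 43 bases, mt-Nd4l and mt-Nd4 share 7 bases, and mt-Atp6 and mt-Co3 share 1 base. The first set below is shown because reads from a shared stretch can be counted for either gene, and the pairs return in the ratios that follow. Sequences are from the GENCODE M21 transcripts, 5′ to 3′, and capitals mark the bases shared with the neighboring gene.
mt-Atp8, whole gene, MT:7766-7969, + strand, end shared with mt-Atp6: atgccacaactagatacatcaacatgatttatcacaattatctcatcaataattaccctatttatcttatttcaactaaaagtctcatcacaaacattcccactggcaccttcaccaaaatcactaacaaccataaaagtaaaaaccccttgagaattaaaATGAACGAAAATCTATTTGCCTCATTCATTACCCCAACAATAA
mt-Nd4l, last 30 bases, MT:10144-10173, + strand, end shared with mt-Nd4: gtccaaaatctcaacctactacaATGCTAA
mt-Nd4, first 30 bases, MT:10167-10196, + strand, start shared with mt-Nd4l: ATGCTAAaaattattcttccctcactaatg
The genes mt-Nd5 and mt-Nd6 overlap tail to tail by 14 bases on opposite strands. Whether the counting used strand is not given in the sources used here. Without strand, reads from that stretch cannot be told apart. As both strands are transcribed, RNA opposite to mt-Nd6 could then be counted for it along its whole length.
mt-Nd5, last 30 bases, MT:13536-13565, + strand: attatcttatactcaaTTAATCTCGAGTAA
mt-Nd6, last 30 bases, MT:13552-13581, - strand: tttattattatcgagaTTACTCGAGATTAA

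The annotated mt-Co3, mt-Nd4 and mt-Cytb genes each end 1 base past their last whole codon. In such mRNAs, the poly(A) tail completes the stop codon, so the mature transcript is made by processing and not by the gene alone. The last 30 bases of these genes are printed to show that end, with the final base in capitals.
mt-Co3, MT:9361-9390, + strand: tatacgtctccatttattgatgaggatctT
mt-Nd4, MT:11515-11544, + strand: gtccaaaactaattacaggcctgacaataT
mt-Cytb, MT:15259-15288, + strand: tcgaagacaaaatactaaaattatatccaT
Nuclear copies of mitochondrial sequence can also take reads. On chromosome 1, between 24611535 and 24616197, GENCODE M21 lists copies of 7 of the 13 genes. None of these copies had a value of its own among the gene names measured. The copies of mt-Atp6, mt-Co2, mt-Co3 and mt-Nd4l had 100% identity over nearly the whole gene, the copy of mt-Nd3 had 1 mismatch in 345 bases, and those of mt-Nd4 and mt-Co1 aligned to 63.6% and 31.3% of the gene. Levels of these 7 genes are therefore uncertain to the extent that the counting, which is not described, divided or dropped such reads. The remaining 6 genes (mt-Nd1, mt-Nd2, mt-Atp8, mt-Nd5, mt-Nd6 and mt-Cytb) were not among them. However, reads from the 43 bases that mt-Atp8 shares with mt-Atp6 could also match the mt-Atp6 copy. Nuclear sequence outside the listed copies was not compared, so these 6 genes are not shown to be free of such reads.

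The libraries differed in more than their labels. FPKM are fragment counts scaled by gene length and library size. Their sum ranged from 439939 to 484093, and 9529 to 10388 genes reached 1 FPKM. On the first principal component, with 70.4% of the variance, CTL 1 (-42.1) and MS + Blebb. 2 (-43.9) stood apart from the others, which lay between -10.0 (MS 3) and 35.8. The deviation of genes from their mean over libraries correlated with GC content at r between -0.64 (MS 1) and 0.55 (MS + Blebb. 1 and MS + Blebb. 2) across genes, which are not independent replicates. Of the pigment cell markers, 10 of 10 reached a mean of 1 FPKM, with a summed level of 9671 to 15715 FPKM. Of the fibroblast markers 0 of 5 and of the keratinocyte markers 0 of 4 reached 1 FPKM, with summed levels up to 0.387 and 0.0314 FPKM, and 3 of 5 and 2 of 4 were listed at 0 in all libraries. Of the macrophage markers only Cd68 and of the muscle markers only Tnnt2 reached it, with summed levels of 2.10 to 4.32 and 0.445 to 6.22 FPKM.

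Mitochondrial mRNAs were among the most abundant RNAs of the cells. By mean FPKM over the 9 libraries, 5 of the 10 highest genes and 11 of the 100 highest were mitochondrial. mt-Co1, the catalytic subunit of cytochrome c oxidase, was the highest of the 13 in 9 of 9 libraries and the highest of all genes in 3. mt-Nd6, the only one on the opposite strand, was the lowest of the 13 in 9 of 9 libraries and ranked 292 among all genes. An mRNA kit was used, so levels also depend on how well each transcript was captured. The order of the means on this length-corrected scale was mt-Co1, mt-Co3, mt-Nd1, mt-Co2, mt-Atp6, mt-Cytb, mt-Atp8, mt-Nd2, mt-Nd4, mt-Nd5, mt-Nd3, mt-Nd4l and mt-Nd6. Over the 9 libraries the ranges of all neighbors in this order overlapped, except that the highest mt-Nd6 value (333 FPKM) lay below the lowest mt-Nd4l value (396 FPKM).

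The share of the summed FPKM taken by the 13 transcripts was 10.8%, 5.07% and 5.84% in CTL, 5.98%, 7.19% and 11.8% in MS and 6.61%, 8.27% and 6.10% in MS + Blebb. One library of each group, CTL 1, MS 3 and MS + Blebb. 2, had the highest share of its group, and the ranges of the groups overlapped. The means were 7.22% ± 3.09, 8.33% ± 3.08 and 6.99% ± 1.14 (SD, n = 3). In bulk RNA, fewer cells of a type and less RNA per cell cannot be told apart, and a share also moves with all other RNA. When each FPKM was weighted by gene length, which approximates the share of mapped fragments, the means were lower, at 3.49%, 3.80% and 3.34%.

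**Figure D1:**
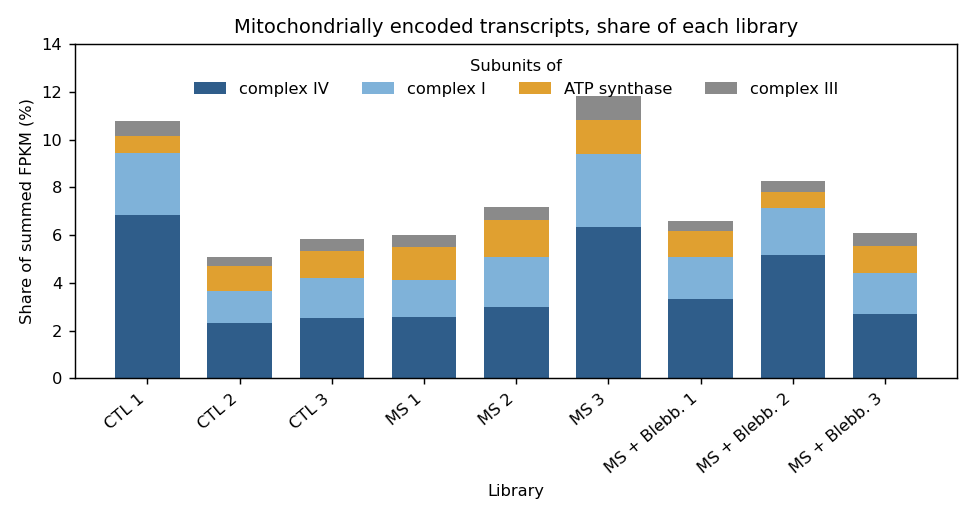
Bars give the share of each library's summed FPKM (percent, y axis) taken by the mitochondrially encoded subunits of 4 complexes, stacked, for the 9 libraries (x axis). CTL 1 (10.8%) and MS 3 (11.8%) stand highest, and the ATP synthase segment is smallest in CTL 1 and MS + Blebb. 2.

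Complex IV made the greatest part of this share and varied most. Its 3 subunits took 6.82%, 2.31% and 2.54% of the summed FPKM in CTL, 2.55%, 2.98% and 6.34% in MS and 3.34%, 5.15% and 2.68% in MS + Blebb. The 7 subunits of complex I took 1.88% ± 0.654 in CTL, 2.25% ± 0.743 in MS and 1.83% ± 0.121 in MS + Blebb. (SD, n = 3). Cytochrome b took 0.499% ± 0.120, 0.678% ± 0.274 and 0.486% ± 0.0528. The ATP synthase subunits behaved differently, with 0.704%, 1.01% and 1.15% in CTL, 1.36%, 1.55% and 1.44% in MS and 1.07%, 0.676% and 1.13% in MS + Blebb. Here the 3 MS libraries lay above all other libraries, and CTL 1 and MS + Blebb. 2, which were rich in complex IV transcripts, were the lowest. How often sums of other genes are apart in this way was not computed. As a part of the mitochondrial FPKM alone, ATP synthase transcripts ranged from 6.54% (CTL 1) to 22.8% (MS 1) and complex IV transcripts from 41.4% (MS 2) to 63.4% (CTL 1).

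CTL 1, MS 3 and MS + Blebb. 2 had the highest summed mitochondrial shares. They also had the highest summed levels of the stress response genes listed. They were the 3 highest for 6 of 7 genes of the integrated stress response (Atf4, Ddit3, Asns, Trib3, Chac1 and Sesn2, but not Psat1). The same held for 7 of the 13 mitochondrial transcripts, which is partly built in because these make up the share. The share of all genes with these 3 highest libraries was not computed, so the counts show no particular link. The same libraries were lowest on the first principal component. They were also the 3 highest for the pigment cell markers Pmel, Dct, Tyr, Slc45a2 and S100b, but not for Mlana, Tyrp1, Sox10, Mitf and Gpnmb. The summed level of the 7 stress genes was 1133, 423 and 450.3 FPKM in CTL, 523, 429 and 902 FPKM in MS and 624, 1155 and 465 FPKM in MS + Blebb. Their part in the mitochondrial levels was not tested. In CTL, 11 of the 13 transcripts were highest in CTL 1, and the other two, mt-Atp8 and mt-Atp6, were lowest there. In MS, 12 of the 13 were highest in MS 3. In MS + Blebb., 8 of the 13 were highest in MS + Blebb. 2, and again mt-Atp8 and mt-Atp6 were lowest there.

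The subunits of complex IV had the widest ranges. mt-Co1 was measured at 18582, 5034 and 5840.0 FPKM in CTL, 5598, 6094 and 15415 FPKM in MS and 7975, 13059 and 5558 FPKM in MS + Blebb., a 3.69-fold range. mt-Co3, a subunit of the catalytic core, was at 8461, 3021 and 2548 FPKM in CTL, 3467, 3808 and 7154 FPKM in MS and 4902, 7515 and 3013 FPKM in MS + Blebb. Both transcripts were highest in CTL 1, MS 3 and MS + Blebb. 2 of their groups, and every pair of groups overlapped. mt-Co2, which receives electrons from cytochrome c, was at 5982, 2377 and 2866 FPKM in CTL, 3125, 3548 and 7108 FPKM in MS and 3065, 4316 and 3205 FPKM in MS + Blebb. Its highest value was in MS 3 and not in CTL 1, and its groups also overlapped.

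The ATP synthase subunits mt-Atp6, which forms part of the proton channel, and mt-Atp8, a small membrane subunit, are translated from a shared mRNA. mt-Atp6 was at 2089.8, 2586 and 2913 FPKM in CTL, 3888, 3874 and 4006 FPKM in MS and 2933, 2042 and 2861 FPKM in MS + Blebb. mt-Atp8 was at 1318, 2001 and 2165 FPKM in CTL, 2629, 3117 and 2730.2 FPKM in MS and 2159, 1222 and 2106 FPKM in MS + Blebb. For both, every MS library lay above every CTL and every MS + Blebb. library. Of all genes tested, 0.524% lay above CTL in MS and 0.683% lay below MS in MS + Blebb. The share of genes with both was not computed. The group means of mt-Atp6 were 2529.7 ± 414, 3922 ± 72.5 and 2612 ± 494 FPKM (SD, n = 3), so its spread within MS was small.

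mt-Cytb, which carries electrons within complex III, was at 3005, 1721 and 2192 FPKM in CTL, 2308, 2523 and 4641 FPKM in MS and 2089, 2309.7 and 2387 FPKM in MS + Blebb. mt-Nd4, a proton-pumping subunit of complex I, was at 1224, 759.6 and 914 FPKM in CTL, 979.9, 1039 and 1943 FPKM in MS and 862, 988 and 922 FPKM in MS + Blebb. Its partner on a shared mRNA, mt-Nd4l, was at 601, 396 and 473 FPKM in CTL, 564, 620.5 and 1029 FPKM in MS and 429.8, 464 and 539 FPKM in MS + Blebb. All 3 had their highest value in MS 3, and for mt-Nd4l all MS values exceeded all MS + Blebb. values, as for 0.683% of all genes tested. The further complex I transcripts overlapped between every pair of groups. mt-Nd1, which lies where the membrane arm meets the peripheral arm, was at 6569, 2606 and 3667 FPKM in CTL, 3699, 5094 and 7177 FPKM in MS and 4228, 4209.9 and 4005 FPKM in MS + Blebb. The SDs of mt-Nd1 were 2051, 1750.3 and 124 FPKM, so its MS + Blebb. libraries lay close together. mt-Nd2, a further proton-pumping subunit, was at 1324, 919 and 991 FPKM in CTL, 934, 1043 and 1773 FPKM in MS and 1035, 1241 and 822 FPKM in MS + Blebb. mt-Nd5, at the far end of the membrane arm, was at 1516, 619 and 635 FPKM in CTL, 643, 627 and 1166 FPKM in MS and 799, 1294 and 627 FPKM in MS + Blebb. In mt-Nd5, as in mt-Co3, CTL 1 and MS + Blebb. 2 were the 2 highest libraries. mt-Nd3, a small membrane subunit, ranged from 517 FPKM (CTL 3) to 1094 FPKM (CTL 1), and mt-Nd6, from the opposite strand, ranged from 167 FPKM (MS + Blebb. 3) to 333 FPKM (CTL 1).

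**Figure D2:**
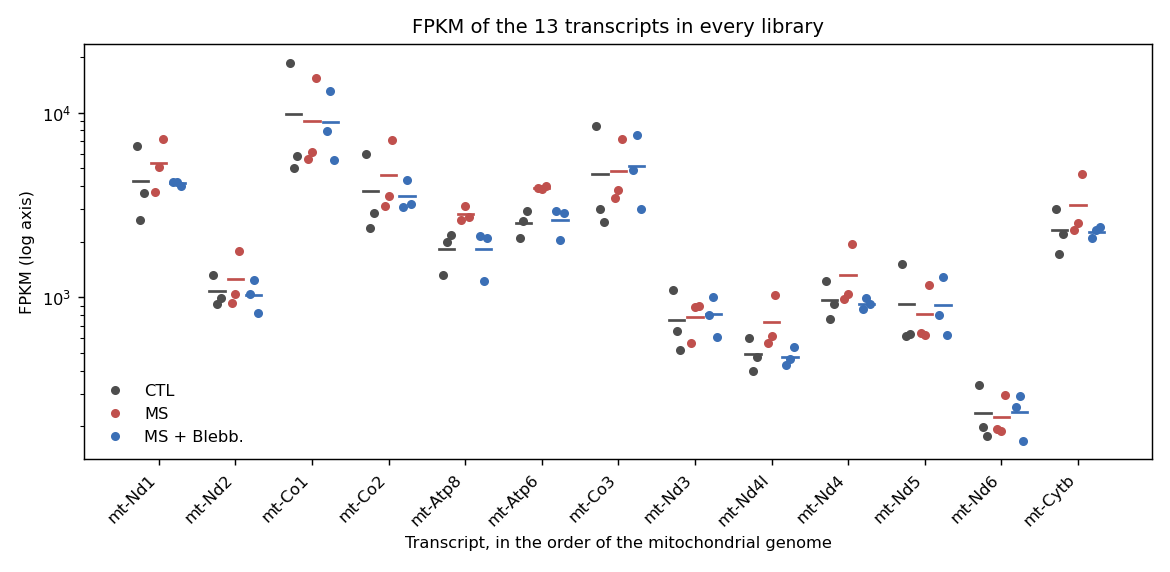
Points give the FPKM (log y axis) of each of the 13 transcripts (x axis, genome order) in every library, and short lines give the mean of the 3 libraries of a group. The MS points of mt-Atp6 (3874 to 4006 FPKM) and mt-Atp8 (2629 to 3117 FPKM) lie above all CTL and MS + Blebb. points, while those of mt-Co1 spread over the range of the other groups. Of all genes tested, 0.524% lay above CTL in MS and 0.683% lay below MS in MS + Blebb.

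To ask whether cyclic straining altered the mitochondrial transcripts, MS was compared with CTL. In the results, 10 of the 13 had a fold change above 0, led by the ATP synthase transcripts and mt-Nd4l. On the scale of log2(FPKM + 1), mt-Atp8 was higher in MS by 0.66 (SE 0.26), mt-Atp6 by 0.65 (SE 0.19) and mt-Nd4l by 0.56 (SE 0.24). Next were mt-Cytb (0.42, SE 0.29), mt-Nd4 (0.41, SE 0.27), mt-Nd1 (0.37, SE 0.34) and mt-Co2 (0.32, SE 0.40). The others lay between 0.18 (mt-Co3, SE 0.51) and -0.11 (mt-Nd5, SE 0.41), with mt-Nd6 at -0.044 (SE 0.30) and mt-Co1 at -0.018 (SE 0.57). In limma, 0 of 13 passed a Benjamini-Hochberg adjusted p of 0.05, as did 0 of the 10109 genes tested (0%), and every adjusted p of the 13 was 1.00. At an unadjusted p under 0.05 in limma, 3 of the 13 were higher in MS, namely mt-Atp6, whose p ranked 3 of 10109, mt-Atp8 at rank 10 and mt-Nd4l at rank 15, where 9 of all genes (0.089%) were higher and 7 (0.0692%) were lower. For 2 of the 13, mt-Atp6 and mt-Atp8, all MS libraries exceeded all CTL libraries, which held for 53 genes in all (0.524%). These 2 share an mRNA, so in this and the next comparison they are not separate measurements. None of the 13 lay wholly below CTL, which held for 267 genes (2.64%).

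The median fold change of the 13 was 0.32 against -0.0018 over all genes tested, and it rested on single libraries. It was 0.57 without CTL 1, 0.065 without CTL 2, 0.19 without CTL 3, 0.55 without MS 1 and -0.022 without MS 3. It was 0.16 after quantile normalization and 0.074 after each library's trend with GC content was removed. With that trend removed, mt-Atp6 was higher by 0.39, mt-Atp8 by 0.42 and mt-Nd4l by 0.35. None of the 13 stayed apart from CTL in all libraries, beside 1.08% of 9663 genes above and 1.08% below. In limma, 0 of the 13 were then under an unadjusted p of 0.05, beside 21 of the 9663 genes. Without CTL 1, mt-Atp8 was higher by 0.44, and without MS 3, mt-Nd4l was higher by 0.29. The fold change of mt-Atp6 stayed between 0.51 and 0.75 as each library was left out.

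To examine the group with myosin inhibition, MS + Blebb. was compared with MS. The same 3 transcripts were at the front, in the other direction, and the MS libraries are shared with the comparison above, so the values are not separate evidence. mt-Atp8 was lower in MS + Blebb. by 0.67 on the log2 scale (SE 0.26), mt-Atp6 by 0.61 (SE 0.19) and mt-Nd4l by 0.58 (SE 0.24). mt-Nd4 was at -0.44 (SE 0.27) and mt-Cytb at -0.41 (SE 0.29), and 5 of the 13 were above 0, up to 0.15 for mt-Nd5 (SE 0.41). In limma, 0 of 13 and 0 of 10109 genes (0%) were called, with adjusted p from 0.897 to 0.989 for the 13. At an unadjusted p under 0.05 in limma, 3 of the 13 were lower, mt-Atp6 at rank 9, mt-Atp8 at rank 54 and mt-Nd4l at rank 87, beside 53 of all genes (0.524%), and 0 were higher, beside 73 (0.722%). The same 3 lay below MS in all libraries, beside 69 of all genes (0.683%), and 0 lay above, beside 308 (3.05%). The median of the 13 was -0.30 against -0.0059 over all genes, -0.53 without MS 1, 0.045 without MS 3, -0.087 without CTL 1, MS 3 and MS + Blebb. 2, and 0.060 with the GC trend removed. With that trend removed, mt-Atp8 was lower by 0.40, mt-Atp6 by 0.26 and mt-Nd4l by 0.25. None of the 13 was then apart in all libraries, beside 2.11% of 9663 genes above MS and 1.39% below. Without MS + Blebb. 2, mt-Atp8 was lower by 0.40, and without MS 3, mt-Nd4l was lower by 0.31.

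Compared with CTL, the MS + Blebb. group differed little in its means. Fold changes ran from -0.064 (mt-Nd2, SE 0.27) to 0.26 (mt-Co3, SE 0.51), with 9 of 13 above 0 and a median of 0.028, against -0.013 over all genes. In limma, 0 of 13 and 0 of 10109 genes (0%) were called, the adjusted p of the 13 was 1.00, and 0 of 13 were under an unadjusted p of 0.05 in either direction (0.0791% of all genes higher and 0.00989% lower). None of the 13 was apart from CTL in all libraries, beside 0.93% of genes that lay above and 1.15% that lay below. The SEs ran from 0.19 (mt-Atp6) to 0.57 (mt-Co1), and differences well above an SE could be missed with 3 libraries a group. In MS against CTL, mt-Atp6 at 0.65 with an SE of 0.19 was not called. The median was 0.31 without CTL 1, -0.17 without CTL 2, -0.073 without CTL 3 and -0.066 without MS + Blebb. 2.

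**Figure D3:**
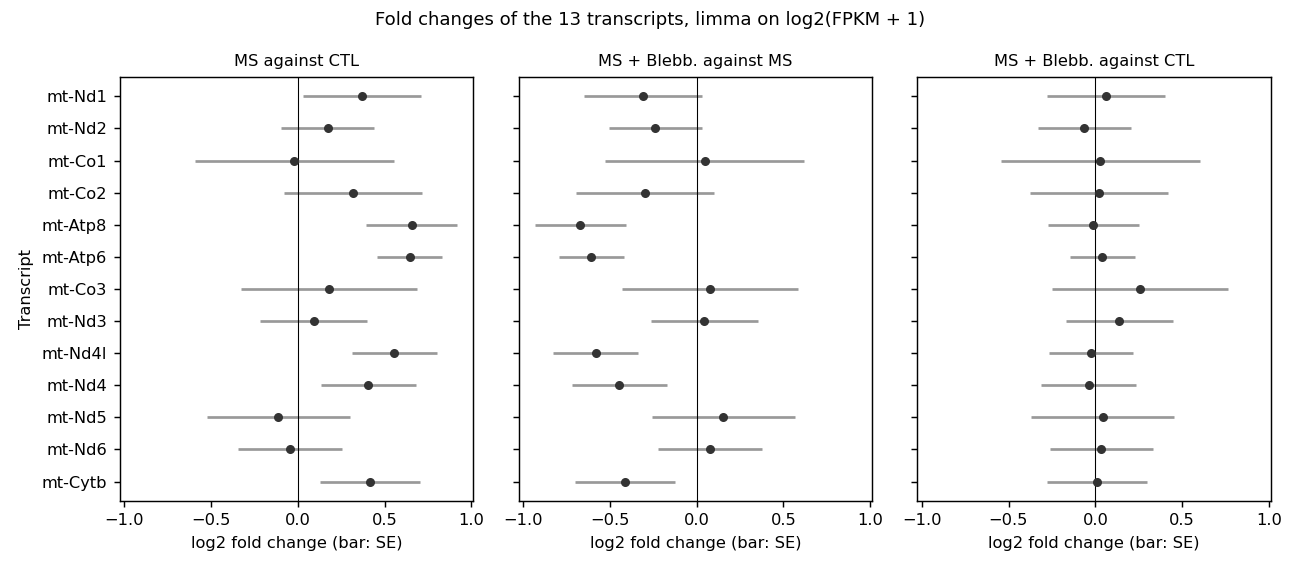
Points give the log2 fold change of each transcript and bars its SE, from limma on log2(FPKM + 1), in 3 comparisons with 3 libraries a group. mt-Atp8 and mt-Atp6 lie farthest from 0 in MS against CTL (0.66 and 0.65) and in MS + Blebb. against MS (-0.67 and -0.61), and all adjusted p values exceed 0.05.

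Because the transcripts come from common precursors, each was also set against the others within a library, which removes the library's scaling. The ratio used was the log2 FPKM of a transcript minus the mean log2 FPKM of the other 12. The ratio of mt-Atp8 was -0.80, 0.73 and 0.73 in CTL, 0.88, 0.96 and 0.05 in MS and 0.48, -0.61 and 0.64 in MS + Blebb. It therefore deviated from its mean by -1.14 in CTL 1 and -0.95 in MS + Blebb. 2, while mt-Atp6 deviated by -0.96 and -0.69 there. In the same libraries mt-Co1 deviated by 0.85 and 0.60, mt-Co3 by 0.58 and 0.69 and mt-Nd5 by 0.52 and 0.57. The ratio of mt-Atp8 thus differed more between libraries of CTL than between the means of MS and CTL, which differed by 0.41. Over the 13 transcripts the differences of these means lay between -0.43 and 0.41.

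**Figure D4:**
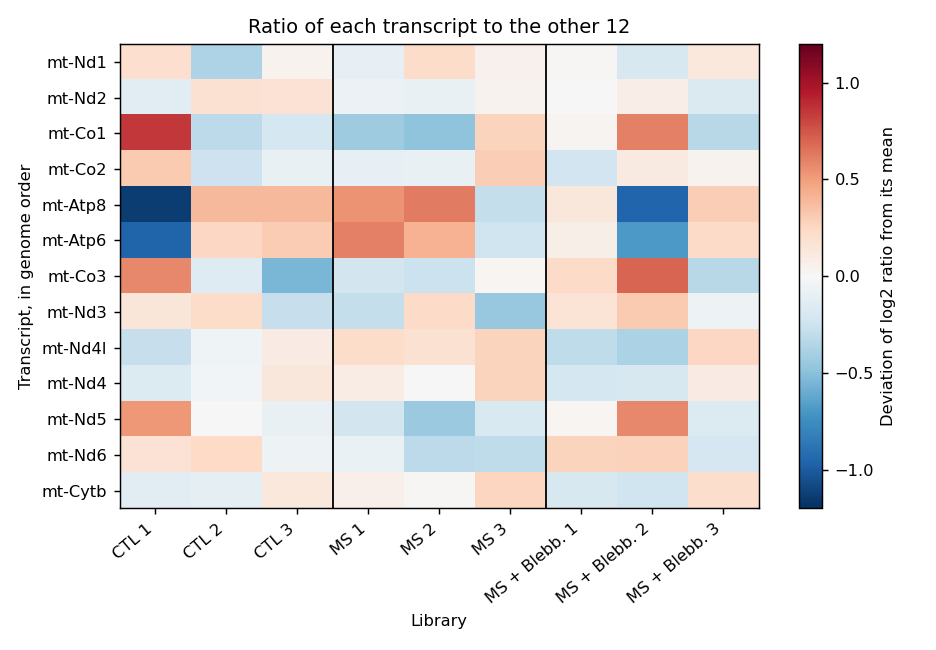
Colors give the deviation of each transcript's log2 ratio to the other 12 from its mean over the 9 libraries (rows, transcripts in genome order, and columns, libraries, with lines between groups). CTL 1 and MS + Blebb. 2 share low mt-Atp8 (-1.14 and -0.95) and mt-Atp6 and high mt-Co1, mt-Co3 and mt-Nd5.

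For 3 of the 13 transcripts, the ratio to the others did not overlap between MS and CTL. Among 10099 genes above 0 in every library, this held for 8.03%. Genes outside the 13 were set against the mean of all 13, so their ratios also move with the whole mitochondrial level. This share and those below are therefore not a like measure. mt-Nd4l was higher, at -1.52 ± 0.044 in MS against -1.82 ± 0.19 in CTL (SD, n = 3). mt-Nd5 was lower, at -1.38 ± 0.14 against -0.96 ± 0.33, and mt-Nd6 was lower, at -3.35 ± 0.13 against -3.004 ± 0.16. In MS + Blebb. the ratios of mt-Nd4l (-1.89 ± 0.34) and mt-Nd6 (-3.01 ± 0.27) overlapped with MS, whereas that of mt-Nd5 was -0.95 ± 0.38, above MS in all libraries. A separation from MS held for 1 of the 13, beside 14.6% of the 10099 genes. Each of these 4 separations had p = 0.1 in the exact two-sided permutation test, the smallest p that 3 against 3 libraries allow, so none could pass a threshold of 0.05. They were 4 of 39 such tests (10.3%), a share close to that smallest p, and are given as values only. Between MS + Blebb. and CTL, 0 of 13 ratios were apart, beside 0.297% of the 10099 genes, and the differences lay between -0.11 and 0.24. mt-Nd5 and mt-Nd6 are neighbors on opposite strands, which come from different precursors. Their values are separate only if the counting used strand, which is not known.

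Between pairs of transcripts, the ratio of mt-Nd4 to mt-Cytb was the steadiest of 78. Its log2 value was -1.30, -1.18 and -1.26 in CTL, -1.24, -1.28 and -1.26 in MS and -1.28, -1.23 and -1.37 in MS + Blebb., with an SD of 0.053 over the 9 libraries, while mt-Nd4 itself had a 2.56-fold range. The next steadiest were mt-Nd4l with mt-Cytb (SD 0.112), mt-Nd4l with mt-Nd4 (SD 0.120) and mt-Atp8 with mt-Atp6 (SD 0.140), against a median SD of 0.394 over all pairs. The last 2 of these pairs are those printed above with shared bases. mt-Nd4 and mt-Cytb share no bases and are separated by mt-Nd5 and mt-Nd6, and the ratio of mt-Nd5 to mt-Cytb had an SD of 0.439. After these came mt-Nd2 with mt-Nd4 (SD 0.184), mt-Nd1 with mt-Cytb (SD 0.190) and mt-Nd1 with mt-Co2 (SD 0.193). mt-Nd5 was steadiest against mt-Nd6 (SD 0.202), which overlaps its end, mt-Co3 (SD 0.207) and mt-Co1 (SD 0.230). If strand was not used, RNA of the mt-Nd5 strand could be counted for mt-Nd6, so that pair may not be separate.

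At the other end, the ratio of mt-Co1 to mt-Atp8 had an SD of 1.04 and ran from 0.97 to 3.82 on the log2 scale. The ratio of mt-Atp8 to mt-Co3 had an SD of 0.962, that of mt-Co1 to mt-Atp6 an SD of 0.922, and that of mt-Atp6 to mt-Co3 an SD of 0.847, although mt-Atp6 and mt-Co3 share a base in the annotation. The 12 pairs of neighboring genes had a median SD of 0.360, and the 66 other pairs had a median of 0.401. Base composition and length moved with these ratios in single libraries. Across the 13 transcripts, the ratio deviation correlated with GC content at r = -0.80 in CTL 2 and 0.79 in MS 3, between -0.56 and 0.48 in the others. With gene length, r was 0.57 in CTL 1, 0.51 in MS + Blebb. 2 and 0.43 in MS 3, and between -0.68 and -0.18 in the other libraries. The part of either in the result was not tested.

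**Figure D5:**
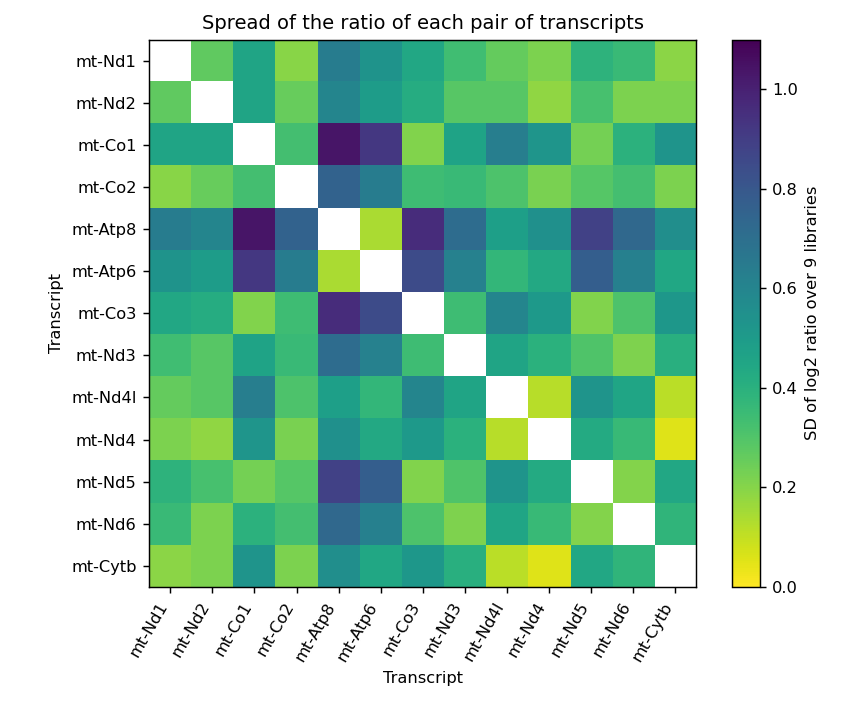
Colors give the SD over 9 libraries of the log2 ratio of each pair of transcripts, with transcripts in genome order on both axes. The lowest value is that of mt-Nd4 with mt-Cytb (0.053) and the highest that of mt-Co1 with mt-Atp8 (1.04).

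The nuclear genes for mitochondrial gene expression were then examined for comparison. Gene names were listed for transcription, replication, processing, tailing, decay and modification of mitochondrial RNA and their regulators. Of these 66 names, 63 had a value and 60 were tested. The names include alternatives for Tbrg4 and Prorp, which were measured. In limma, 0 of the 60 were called in each of the 3 comparisons, and 0 were under an unadjusted p of 0.05. In MS against CTL, 34 were above 0 and 26 below with a median of 0.014. In MS + Blebb. against MS the counts were 30 and 30 with a median of -0.0067, and in MS + Blebb. against CTL 32 and 28 with a median of 0.034. These medians lay close to those over all genes tested (-0.0018, -0.0059 and -0.013).

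Polrmt, the mitochondrial RNA polymerase, was at 13.4, 18.7 and 17.3 FPKM in CTL, 14.5, 18.3 and 12.5 FPKM in MS and 20.1, 15.1 and 15.9 FPKM in MS + Blebb. Its groups overlapped, with a log2 fold change of -0.12 (SE 0.19) in MS against CTL. Among its partners, Tfam, which packs the DNA and starts transcription, was at 0.19 (SE 0.26), Tfb2m, which opens the promoter, at 0.35 (SE 0.30) and the elongation factor Tefm at 0.18 (SE 0.20). Lrpprc, which with Slirp protects mitochondrial mRNAs and their poly(A) tails, was at 6.82, 9.33 and 11.9985 FPKM in CTL, 14.1, 6.74 and 12.9 FPKM in MS and 5.36, 5.74 and 10.7 FPKM in MS + Blebb. Its fold change was 0.21 (SE 0.33) in MS against CTL and -0.57 (SE 0.33) in MS + Blebb. against MS, the lowest of the 60, and its groups overlapped. Slirp was at 0.30 (SE 0.29) and -0.17 (SE 0.29) in the same comparisons. Mtpap, the poly(A) polymerase, was at -0.046 (SE 0.21) and 0.091 (SE 0.21). Of the RNA-degrading enzymes, Pnpt1 was at 0.44 (SE 0.52) and -0.48 (SE 0.52) and the helicase Supv3l1 at -0.074 (SE 0.13) and 0.16 (SE 0.13). Grsf1, of the mitochondrial RNA granules, was at 0.036 (SE 0.19) and -0.18 (SE 0.19), and the coactivator Ppargc1a, at 0.652 to 4.86 FPKM, was at 0.17 (SE 0.50) and -0.17 (SE 0.50). The adjusted p in limma of the 11 genes named here was at least 0.897 in every comparison.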

How the data were processed

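RNA had been extracted with TRIzol and prepared with the SMARTER mRNA-Seq kit. The authors deposited 1 FPKM value per gene and library, already scaled by length and depth. The submitters' processing notes name GRCm38 and mm10. The aligner, counter, strand setting and handling of multiply mapped reads are not given in the sources used here, and depth is unknown, so no counting interval is given. The column of CTL 1 is headed by a sample name and was read as FPKM. Values were transformed as log2(FPKM + 1), which understates changes of low genes. The 3 groups were compared in limma 3.58.1 (R 4.3.3) with a variance trend, a minimum average of 1 FPKM and Benjamini-Hochberg adjustment over all 10109 genes. The code was checked on simulated data. Ratios were tested by exact permutation (scipy 1.17.1). Library numbers were not used as pairs in the main fit. Genes named were all mt- symbols and fixed nuclear and marker lists; members and lists were chosen with earlier results of these data known. RNA quality genes and mt-Rnr2 were not analysed here.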

Additional observations from a re-analysis of the deposited data

How the results depend on the processing

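In every alternative run (0.1 as the pseudocount, all genes kept or only those with at least 5 FPKM, quantile normalization, median-of-ratios factors, equal non-mitochondrial sums, a GC trend removed by loess with a span of 0.5, no variance trend, a fit of the groups compared alone, libraries left out), 0 of the 13 transcripts were called in each comparison. Deviations of same-numbered libraries correlated at -0.78 to 0.84, which does not settle whether the replicate numbers pair the samples. With a replicate block in limma, 0 of 13 were called. In that fit 14, 119 and 10 of all genes were under an unadjusted p of 0.05, against 16, 126 and 9 without the block. Single fold changes near 0 changed sign, and the cause was not tested. Without CTL 1 and MS + Blebb. 2 together, mt-Co1 was at 0.57 and mt-Nd6 at 0.23 for straining against control, and at -0.28 and -0.089 for MS + Blebb. against MS. Without CTL 1, MS 3 and MS + Blebb. 2 together, mt-Co1 and mt-Nd6 were at 0.11 and 0.023 for straining. Between MS + Blebb. and CTL, mt-Atp6 was at -0.084 by quantile normalization, mt-Cytb at -0.017 by quantile normalization and -0.018 with equal non-mitochondrial sums, mt-Atp8 at 0.020 with median-of-ratios factors, 0.015 without the GC trend and 0.035 with 2 or 3 libraries left out, and mt-Nd4l at 0.0089, 0.10 and 0.15 in the same settings. Leaving out 1 library at a time gave mt-Co1 from -0.49 to 0.57 (MS and CTL), -0.28 to 0.51 for MS + Blebb. against MS and -0.32 to 0.62 in MS + Blebb. against CTL. The same ranges for mt-Nd6 were -0.25 to 0.23, -0.089 to 0.31 and -0.15 to 0.31. In MS + Blebb. against CTL they were -0.090 to 0.21 for mt-Atp6, -0.23 to 0.25 for mt-Atp8, -0.17 to 0.13 for mt-Nd4l and -0.18 to 0.22 for mt-Cytb. Weighting by length moved the summed share to 3.49% (CTL), 3.80% (MS) and 3.34% (MS + Blebb.). Of 75 ratio differences under other settings, 17 moved by more than the spread between replicates and 58 did not. Only protein genes of the mitochondrial genome were included, and shares of the summed FPKM of protein genes alone were not computed. After quantile normalization only mt-Atp8 of the 13 stayed apart between MS and each other group. Beside it, 1.17% of all genes lay above CTL in MS and 0.762% lay below MS in MS + Blebb. With equal non-mitochondrial sums mt-Nd4l was no longer apart between MS + Blebb. and MS, where 0.831% of all genes lay below MS.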
